A study of Mus musculus with 2 samples.

Results

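Ptbp, Nova, Rbfox and neuronal Srrm proteins bind RNA or the splicing machinery and decide which exons a neuron keeps. Their 10 genes, Ptbp1, Ptbp2, Ptbp3, Nova1, Nova2, Rbfox1, Rbfox2, Rbfox3, Srrm3 and Srrm4, were taken by symbol from 43346 annotated genes, and all 10 were found, with 59 annotated transcripts in the deposited tables. They were measured by total RNA sequencing of neural tube, the structure that forms brain and spinal cord, dissected from healthy B6NCrl mouse embryos at 15.5 days. The 2 libraries came from separate pools of 78 embryos (replicate 1) and 62 embryos (replicate 2), males and females together, and each was made from 10 ng of RNA above 200 nucleotides (nt). They form 1 group with no second condition, so no test was possible, and every SD is that of 2 pools (n = 2).

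Polypyrimidine tract binding proteins (Ptbp) bind CU-rich RNA and mostly repress exons. Ptbp1 does so in progenitors and non-neuronal cells, and Ptbp2 takes over in neurons. Nova proteins act through UCAU clusters and Rbfox proteins through UGCAUG, both with an effect that depends on whether the site lies before or after the exon. Srrm4 and its relative Srrm3 promote microexons, exons of a few codons kept mainly in neurons. Several of these genes also control their own RNA, or that of a relative, by producing transcripts with an early stop codon. Such transcripts are degraded by nonsense-mediated decay (NMD).

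Expected counts, the model-based read numbers, summed to 35430338 in replicate 1 and 42321669 in replicate 2 over all entries, added control RNA (spike-ins) included. Over annotated genes alone the sums were 34678043 and 41355355. Levels are given in TPM, a unit of transcript abundance which corrects for length and depth. Of all genes, 15505 reached 1 TPM in both libraries, all 10 regulators among them. The libraries differed in markers of other tissues. All 10 neuronal markers on the list were higher in replicate 2, and their sum was 4702 TPM in replicate 1 and 5580 in replicate 2, so RNA of nervous tissue was abundant in both, as the labels say. All 8 markers of cycling cells were higher in replicate 1, where their sum was 509 TPM against 233. Thymocyte markers summed to 301 against 9.67 TPM, and markers of simple and other epithelium to 669 against 11.6 TPM. In whole tissue, fewer cells of a type and less RNA per cell cannot be told apart.

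The 10 regulators covered a range of levels from Rbfox1 at the top to Srrm4 at the bottom. Rbfox1 was at 195.3 TPM in replicate 1 and 225.83 in replicate 2 (211 ± 21.6). Ptbp2 followed at 119 ± 11.9 TPM, below Rbfox1 in both libraries. Rbfox3 (73.4 ± 10.8), Ptbp1 (72.5 ± 38.0), Nova1 (66.2 ± 12.5), Srrm3 (62.3 ± 12.4) and Rbfox2 (55.3 ± 6.24) formed a middle group. Within it, the ranges of neighbours in the order overlapped between the pools. In each library taken alone, however, Rbfox3, Nova1, Srrm3 and Rbfox2 stood in this order. Only Ptbp1 changed place, from 3 of the 10 in replicate 1 to 7 in replicate 2. Ptbp3 was lower, at 18.1 ± 5.80 TPM, and its range overlapped neither Rbfox2 above nor Nova2 below. Nova2 at 10.3 ± 0.983 TPM and Srrm4 at 10.0 ± 1.36 TPM overlapped. The counts behind these levels ran from 1148 for Srrm3 in replicate 1 to 13710 for Nova1 in replicate 2.

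**Figure D1:**
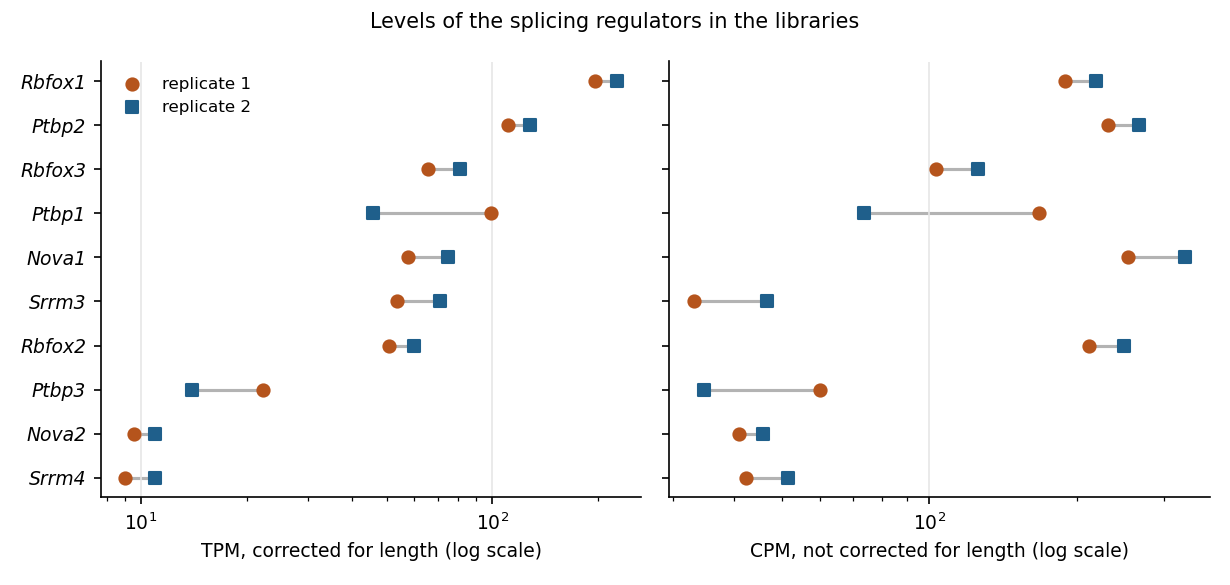
Level of each regulator in replicate 1 (circles) and replicate 2 (squares), in TPM on the left and in CPM, counts corrected for depth but not for length, on the right, both on log axes. Rbfox1 was highest in TPM and Nova1 in CPM, and Ptbp1 and Ptbp3 alone had the circle to the right of the square.

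The order depended on the correction for length. In CPM, which favours genes with long transcripts, Nova1 came first at 292 ± 55.3 CPM and Rbfox1 came after Nova1, Ptbp2 and Rbfox2 at 204 ± 20.9 CPM. Srrm3, sixth by TPM, came last at 39.9 ± 9.59 CPM. Ptbp2 was second on both scales.

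Ptbp1 was the regulator that differed most between the pools. Ptbp1 (ENSMUSG00000006498.12, chr10:79854427-79864771, + strand, mm10) was at 99.36 TPM in replicate 1 and 45.62 in replicate 2. That is a 2.18-fold difference, 1.11 on the scale of log2(TPM + 1), and it lay at percentile 94.5 of all genes. A difference of at least 1 on that scale in either direction was called, among genes with 1 TPM or more in either library. Of the 10 regulators, 1 was called, Ptbp1. Of 17222 genes, 6.38% were called higher in replicate 1 and 1.05% higher in replicate 2, so 1 in 10 is near the background. With TMM scaling of the counts these shares were 5.47% and 0.168%.

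Ptbp3 (ENSMUSG00000028382.11, chr4:59471868-59549364, − strand), a relative known from blood-forming cells, was at 22.24 TPM in replicate 1 and 14.04 in replicate 2, a log2 ratio of 0.63 that was not called. Ptbp2 (ENSMUSG00000028134.7, chr3:119718742-119784466, − strand) went the other way, at 110.7 and 127.51 TPM. Ptbp2 exceeded Ptbp1 by 1.11-fold in replicate 1 and by 2.80-fold in replicate 2, and its share of the family's TPM was 47.7% and 68.1%. On the log2 scale the ratio was 0.81 ± 0.93, an SD larger than the mean. Ptbp3 was below Ptbp2 in both pools, 4.98-fold in replicate 1 and 9.08-fold in replicate 2.

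The other 7 regulators, with Ptbp2, were all slightly higher in replicate 2, by 0.18 (Nova2) to 0.40 (Srrm3) on the log2 scale. Across all genes, 46.1% were higher in replicate 2, and the median log2 ratio of replicate 1 over replicate 2 was 0.024, against -0.22 over the 10 regulators. The split of 2 genes higher in replicate 1 and 8 higher in replicate 2 was found under each of the scalings tried. The cycling-cell markers differed in the same direction as Ptbp1 and Ptbp3, with 7 of 8 called, and so did 8 of 8 epithelial and 8 of 10 thymocyte markers, while 0 of 10 neuronal markers were called. Markers of progenitors and radial glia were mixed: 7 of 10 were higher in replicate 2, and none was called. The 3 higher in replicate 1 were Notch1 (18.57 and 9.59 TPM), Hes1 (19.03 and 11.17 TPM) and Vim (406.54 and 365.46 TPM). The sum of this list was 2129 TPM in replicate 1 and 2523 in replicate 2, most of it from Fabp7, at 1416.71 and 1832.5 TPM. Skeletal muscle markers were higher in replicate 2 in 6 of 6 cases, with sums of 144 and 262 TPM. Defining thymocyte genes were near 0 in replicate 2, with Cd3g listed at 0 there and at 93.01 TPM in replicate 1. Epithelial Krt8 was at 266.3 and 1.97 TPM. Their part in the Ptbp1 and Ptbp3 differences was not tested.

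**Figure D2:**
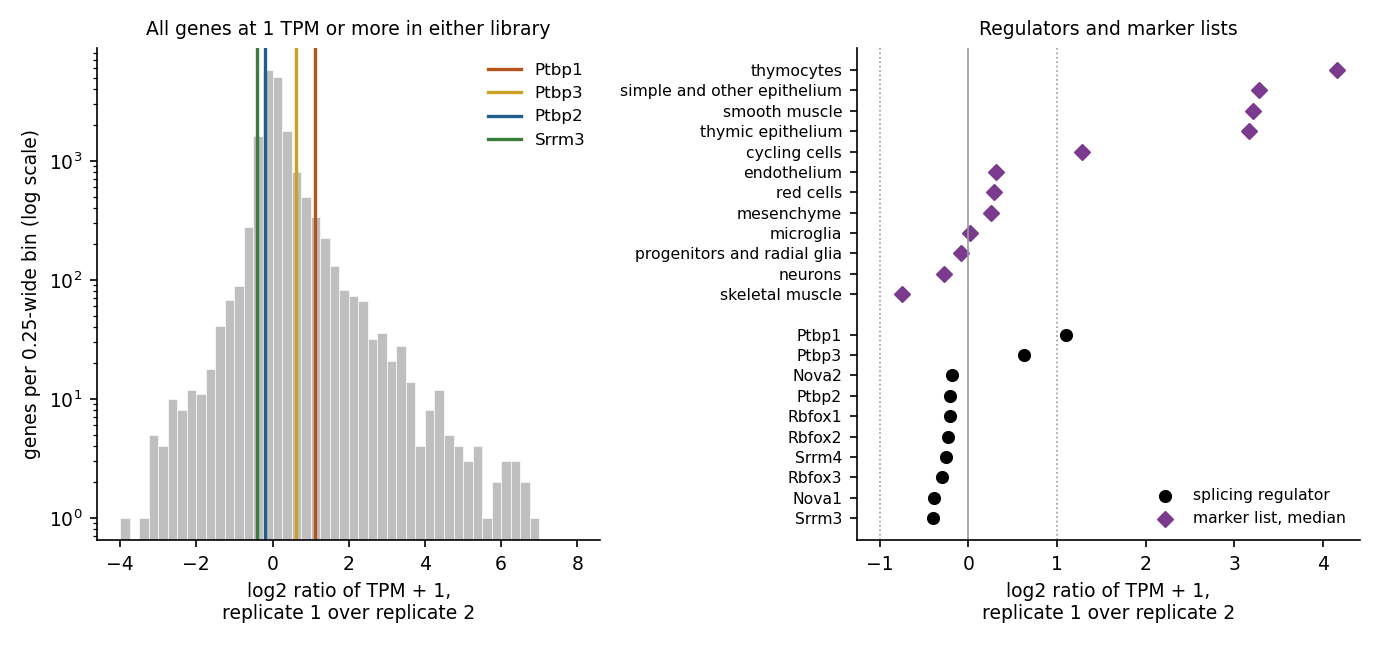
Left, number of genes (log axis) by log2 ratio of TPM + 1 between the libraries, with lines at 4 regulators. Right, the same ratio for each regulator (circles) and the median of each marker list (diamonds), where values right of 0 are higher in replicate 1 and dotted lines mark the call at 1: only Ptbp1 among the regulators passed it, as did the medians of the cycling-cell, thymocyte, epithelial, thymic epithelial and smooth muscle lists.

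Ptbp1 shares its locus with other genes. Exons of Plppr3, a membrane protein gene on the opposite strand, overlap exons of Ptbp1, and Plppr3 was at 259.38 TPM in replicate 1 and 314.67 in replicate 2. The sources used here do not say whether the counting used strand, so reads of Plppr3 in the shared stretch could have been assigned to either gene. Plppr3 was higher in the library in which Ptbp1 was lower.

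Skipping of a 34-nt exon shifts the reading frame and links the family. Ptbp1 protein is known to cause skipping of this exon in its own RNA and in that of Ptbp2, which sends both to NMD. The 3 versions of the exon are shown because the unproductive transcripts below turn on it. They are given 5′ to 3′ on the coding strand, with bases that all 3 genes share in capitals. They lie at chr10:79862014-79862047, chr3:119724612-119724645 and chr4:59485339-59485372, each exon 10 of 14 and coding. In some Ptbp3 transcripts, however, the exon lies outside the coding sequence.
Ptbp1 34-nt exon: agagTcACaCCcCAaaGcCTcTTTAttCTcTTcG
Ptbp2 34-nt exon: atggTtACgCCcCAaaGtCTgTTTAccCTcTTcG
Ptbp3 34-nt exon: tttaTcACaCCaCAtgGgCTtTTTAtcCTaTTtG

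All 3 genes shared 19 of 34 positions, and Ptbp1 and Ptbp2 shared 26. In Ptbp1, transcripts with the exon made up 98.2% of the TPM at this junction in replicate 1 and 96.0% in replicate 2. The skipped form was thus a small part, 1.82% and 4.02%. It was carried by 1 annotated NMD transcript, ENSMUST00000057343, at 1.63 and 1.57 TPM. Its stop codon lies in the following exon, number 9 of its 12, and 361 nt before the last exon junction. The intervals deposited with its estimates were wide, 0.137 to 2.88 TPM in replicate 1 and with a lower bound near 0 in replicate 2. At such intervals, a difference in the skipped form between the pools could not be read, while the transcripts holding the exon went from 88.11 to 37.49 TPM. For Ptbp2 the deposited tables hold 1 transcript, which includes the exon, so its skipping could not be measured. The later annotation release used here for names has 12 further Ptbp2 transcripts, 8 of them unproductive.

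Ptbp1 also has a 78-nt exon of whole codons, whose inclusion or skipping gives long and short forms of the protein. It lies at chr10:79860117-79860194 and has a counterpart in Ptbp3 at chr4:59488111-59488188. Capitals mark the 46 of 78 positions at which both agree when read without gaps.
Ptbp1 78-nt exon: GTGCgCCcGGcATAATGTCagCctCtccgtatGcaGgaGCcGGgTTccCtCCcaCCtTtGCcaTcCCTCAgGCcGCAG
Ptbp3 78-nt exon: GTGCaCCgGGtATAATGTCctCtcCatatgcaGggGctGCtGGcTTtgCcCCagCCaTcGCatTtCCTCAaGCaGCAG

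In Ptbp1 the exon was included at 37.7% in replicate 1 and 43.5% in replicate 2 (40.6 ± 4.12), so most Ptbp1 RNA in both pools lacked it. The leading transcript with the exon, ENSMUST00000172282 of 555 codons, was at 33.26 and 16.72 TPM. Those without it were ENSMUST00000095457 at 32.94 and 14.25 TPM and ENSMUST00000165704 at 21.32 and 6.23 TPM. These 3 coding transcripts were each lower in replicate 2, so no single isoform carried the difference between the pools. Another Ptbp1 exon has a long form of 320 nt and a short form of 200 nt that drops 40 codons. The long form held 63.1% and 63.5%, the same split in both libraries at a 2.18-fold difference in the gene. Across the 10 genes the tables held 12 distinct alternative exons, all of which could be measured in at least 1 splice-site setting. Those of Ptbp1 not described were at or near 0% or 100% in both pools.

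Transcripts were classed as productive (protein coding) or unproductive (typed as NMD, non-stop decay, retained intron or processed transcript). Of the 59 transcripts, 36 were coding, 6 were NMD, 11 were retained intron, 4 were processed and 2 had no match in the annotation. Only Ptbp1, Ptbp3, Rbfox3, Srrm3 and Srrm4 had both kinds. For the other 5 genes the tables hold no unproductive transcript, so a share of 0 there is a property of the annotation.

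Productive Ptbp1 RNA was at 91.78 TPM in replicate 1 and 39.73 in replicate 2, whereas its unproductive RNA was at 7.58 and 5.89 TPM. The unproductive share was 7.63% and 12.9% (10.3 ± 3.74). It was 4.44% and 7.96% by expected counts and 10.9% and 18.05% by posterior mean TPM, both higher in replicate 2. With NMD transcripts alone it was 1.75% and 3.80%. That value rests on ENSMUST00000057343 alone, whose difference between the pools could not be read. The largest unproductive Ptbp1 transcript was a retained intron, ENSMUST00000169580, at 2.95 and 2.34 TPM.

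In TPM, Ptbp3 had the largest unproductive share among the 5 regulators with both kinds of transcript, 22.5% in replicate 1 and 31.6% in replicate 2 (27.1 ± 6.49). It was the only regulator at 20% or more in both libraries, 1 of 5 with both kinds of transcript. Of 6515 protein-coding genes at 5 TPM or more with both kinds, 36.5% passed the same threshold, and their median share was 12.8% and 13.9%. The leading coding transcript, ENSMUST00000030076, gave 51.0% and 50.04% of Ptbp3. The NMD transcript ENSMUST00000174748 gave 15.2% and 9.76%. It lacks a 170-nt exon that is not a whole number of codons, and its stop codon lies 920 nt before the last junction. Among transcripts that share its splice sites, inclusion of the exon was 57.5% and 56.9%. A 34-nt exon near the start of Ptbp3, distinct from the one shown, was included at 20.1% and 14.3%. Retained-intron transcript ENSMUST00000151313 gave 7.24% and 13.3%, and ENSMUST00000173268 was listed at 0 in replicate 1 and at 1.21 TPM in replicate 2. Ptbp3 has the fewest counts of the family. By expected counts, which are not corrected for length, its unproductive share was 4.89% and 5.46%, and the regulator at 20% or more in both libraries was then Srrm3 in place of Ptbp3. A second coding transcript, ENSMUST00000148331, gave 18.2% and 8.70%, and ENSMUST00000140925 gave 3.69% and 5.42%.

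**Figure D3:**
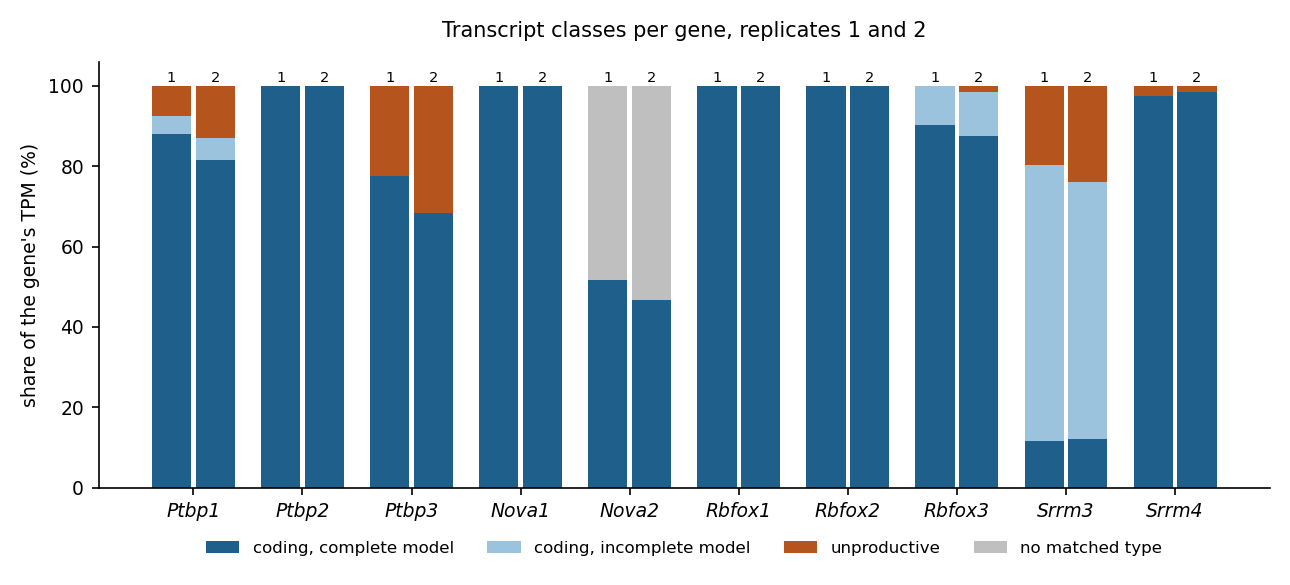
Share of each gene's TPM (%) in complete coding, incomplete coding, unproductive and unmatched transcripts, with replicate 1 on the left and replicate 2 on the right of each pair of bars. Ptbp3 and Srrm3 had the largest unproductive shares, and most Srrm3 TPM stood in an incomplete coding model.

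Nova1 (ENSMUSG00000021047.6, chr12:46694517-46818929, − strand) and Nova2 (ENSMUSG00000030411.11, chr7:18925888-18965319, + strand) encode RNA-binding proteins with KH domains that were first known as targets of autoantibodies in a paraneoplastic brain syndrome. Nova1 was at 57.39 TPM in replicate 1 and 75.02 in replicate 2. Nova2 was at 9.56 and 10.95 TPM. Nova1 was thus 6.003-fold higher than Nova2 in replicate 1 and 6.85-fold in replicate 2, and gave 85.7% and 87.3% of the pair's TPM. The direction held in both pools and on the count scale, where the log2 ratio of Nova2 to Nova1 was -2.71.

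A 72-nt exon of Nova1, at chr12:46713498-46713569, is the one Nova1 protein is known to repress in its own RNA. It is coding and a whole number of codons, and is shown whole because it is the known site of self-control.
Nova1 72-nt exon: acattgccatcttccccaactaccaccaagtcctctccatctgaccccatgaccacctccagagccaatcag

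The deposited tables hold 1 Nova1 transcript, which contains the exon, so its inclusion could not be measured. Nova2 RNA was divided between a coding transcript, ENSMUST00000032571, at 4.93 and 5.10 TPM, and ENSMUST00000172835, at 4.63 and 5.85 TPM. The second had no match in the later annotation and so no type. With the matched coding transcripts alone, the log2 ratio of Nova2 to Nova1 was -3.47.

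The Rbfox family was the most abundant of the 4 by summed TPM, 311.96 in replicate 1 and 366.55 in replicate 2. Rbfox1 (ENSMUSG00000008658.11, chr16:5885355-7411526, + strand) gave 62.6% and 61.6% of it. Rbfox3 (ENSMUSG00000025576.13, chr11:118489762-118911597, − strand), whose protein is the NeuN antigen used to mark mature neurons, gave 21.1% and 22.1%. Rbfox2 (ENSMUSG00000033565.12, chr15:77078990-77307004, − strand), the member also common outside the nervous system, gave 16.3% in both. Unlike the Ptbp family, the Rbfox genes kept nearly the same proportions in both pools.

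Within the family, Rbfox1 exceeded Rbfox2 by 3.84-fold in replicate 1 and 3.78-fold in replicate 2, and Rbfox3 by 2.97-fold and 2.79-fold. These ratios rest on transcript length. In CPM, Rbfox2 was slightly above Rbfox1, with a log2 ratio of 0.17 in place of -1.91. The Rbfox3 to Rbfox2 ratio likewise changed sign, from 0.40 in TPM to -1.004 in CPM. Of Rbfox1's TPM, 85.5% in each library stood in ENSMUST00000115841, a model of 1191 nt that holds the coding sequence alone. The other model, ENSMUST00000056416, is 4084 nt long and encodes the same number of codons.

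A 40-nt coding exon near the end of the protein is common to the 3 Rbfox genes. It is the brain form of a pair of exclusive exons known in Rbfox1, the other being the muscle form. The versions are shown because inclusion of this exon sets the reading frame at the end of the protein, and bases common to all 3 are in capitals. They lie at chr16:7363865-7363904, chr15:77094451-77094490 and chr11:118496351-118496390.
Rbfox1 40-nt exon: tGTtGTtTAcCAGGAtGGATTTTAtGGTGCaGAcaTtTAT
Rbfox2 40-nt exon: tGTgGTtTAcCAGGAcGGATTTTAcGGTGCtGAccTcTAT
Rbfox3 40-nt exon: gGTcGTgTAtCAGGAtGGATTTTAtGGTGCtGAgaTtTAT

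The 3 exons share 30 of 40 positions, and Rbfox1 shares 34 with each of the others. Both deposited Rbfox1 models hold the exon. In Rbfox2 its inclusion was 69.3% in replicate 1 and 65.2% in replicate 2 (67.2 ± 2.88), resting on ENSMUST00000166610 at 35.23 and 38.90 TPM against ENSMUST00000111581 at 11.74 and 16.50 TPM and ENSMUST00000048145 at 3.89 and 4.27 TPM. Some of these models changed length between annotation releases, which limits this value.

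Rbfox3 uses the same exon in a short form of 40 nt or a long form of 181 nt, chr11:118496351-118496531. The added 141 nt are 47 codons placed before the 40-nt exon. It was singled out after its values were seen.
Rbfox3 141-nt segment: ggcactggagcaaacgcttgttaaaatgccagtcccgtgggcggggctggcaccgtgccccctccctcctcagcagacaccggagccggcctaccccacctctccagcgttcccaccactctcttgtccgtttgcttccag

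The long form held 36.8% in replicate 1 and 46.8% in replicate 2 (41.8 ± 7.07), so both were in use in each pool. The short-form transcripts were at 37.56 and 37.72 TPM, nearly the same, and the long-form ones at 21.86 and 33.17. The higher Rbfox3 level in replicate 2 therefore stood mainly in the long form. Of single transcripts, ENSMUST00000103023 was first at 28.32 and 26.70 TPM, then ENSMUST00000017576 at 15.71 and 18.38 TPM. ENSMUST00000117731 differed most, at 6.01 and 14.79 TPM. It also skips a non-coding 40-nt exon near the start of the gene, whose inclusion was 89.9% and 79.1%. ENSMUST00000106278 was at 9.24 and 11.02 TPM, and the incomplete ENSMUST00000136551 at 6.39 and 8.97 TPM.

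In Rbfox3, skipping of an exon within the RNA-binding domain was nearly absent. A 93-nt exon of Rbfox3, at chr11:118502842-118502934, codes for part of that domain, and its loss is known to give a protein that binds RNA poorly.
Rbfox3 93-nt exon: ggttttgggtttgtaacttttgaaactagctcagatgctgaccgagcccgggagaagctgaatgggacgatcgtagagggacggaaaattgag

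Inclusion of this exon was 99.8% in replicate 1 and 100% in replicate 2. Its only skipping transcript was at 0.14 TPM in replicate 1 and listed at 0 in replicate 2. The unproductive share of Rbfox3 was 0% and 1.48%.

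Srrm3 (ENSMUSG00000039860.15, chr5:135806890-135874772, + strand) and Srrm4 (ENSMUSG00000063919.8, chr5:116439275-116591817, − strand) are the serine and arginine repeat proteins of the neuronal microexon program. Srrm3 was at 53.5 TPM in replicate 1 and 71.01 in replicate 2, and Srrm4 at 9.04 and 10.97 TPM. By TPM, Srrm3 exceeded Srrm4 5.92-fold and 6.47-fold. This order did not survive other measures. In CPM the log2 ratio of Srrm3 to Srrm4 was -0.24, against 2.51 in TPM. With complete coding transcripts alone it was -0.38, with Srrm3 at 6.22 and 8.53 TPM and Srrm4 at 8.81 and 10.82 TPM.

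A single short model held most of Srrm3 on the TPM scale. ENSMUST00000126232, of 526 nt and annotated as incomplete, held 68.7% of Srrm3 TPM in replicate 1 and 64.1% in replicate 2. The complete coding transcript ENSMUST00000144211, of 3932 nt and 648 codons, held 11.6% and 12.01% of TPM but 46.1% and 44.9% of the gene's counts. In Srrm4, ENSMUST00000076124 held 96.7% and 97.7%.

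Srrm3 had an unproductive share of 19.7% in replicate 1 and 23.9% in replicate 2 (21.8 ± 2.97), on either side of the 20% threshold. Retained introns made up most of it, with ENSMUST00000146038 at 3.56 and 6.76 TPM, ENSMUST00000135615 at 3.30 and 4.45 TPM, and ENSMUST00000150566 at 2.6 and 4.2 TPM. With transcripts typed for decay alone the share was 2.41% and 2.77%. By expected counts the unproductive share was 23.6% and 28.5%, so unlike that of Ptbp3 it did not fall when length was left uncorrected. In TPM, most of the productive RNA in this share was the incomplete 526-nt model, at 36.77 and 45.54 TPM. Srrm4 was almost wholly productive, with 2.54% and 1.46% unproductive. An antisense gene, Srrm4os, overlaps exons of Srrm4 and was at 2.35 and 3.69 TPM.

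The NMD transcript of Srrm3, ENSMUST00000013615, carries a 20-nt microexon at chr5:135867127-135867146. This exon is shown because it begins the stop codon itself: the capitals mark the first bases of a stop codon completed by the next exon.
Srrm3 20-nt exon: gaggaagtgccactttatTG

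That stop ends the reading frame after 342 codons, in place of 648 without the exon, and lies 709 nt before the last junction. Inclusion was 14.6% in replicate 1 and 15.3% in replicate 2, from 1.06 and 1.54 TPM with the exon against 6.22 and 8.53 TPM without it. The level was the same in both pools within 1 point, but the intervals deposited for the NMD transcript reached from near 0 to 2.02 TPM in replicate 1 and from 0.348 to 2.63 TPM in replicate 2. By expected counts inclusion was 8.83% and 9.35%.

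Exons that these proteins are known to control were read in a list of 31 target genes, all of which reached 1 TPM in both libraries. None of the 31 was called between the libraries, against 7.43% of all genes in either direction, and 24 were higher in replicate 2. The highest were Pkm (pyruvate kinase) at 806.95 and 723.38 TPM, Mapt (tau) at 711.59 and 868.01 TPM, Clta (clathrin light chain) at 281.02 and 312.15 TPM, and Snap25 (synaptic fusion) at 263.87 and 280.65 TPM. The lowest were Rest, the repressor of neuronal genes, at 8.93 and 5.07 TPM, Unc13b at 8.77 and 9.72 TPM, and Mef2c at 12.99 and 12.52 TPM.

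Inclusion was read for each exon between a given pair of neighbouring splice sites, so that an exon with several such settings was read more than once. Of 107 such readings in these genes, 99 could be measured, which cover 92 distinct exons in 26 genes, 19 of them microexons of 27 nt or less. Inclusion differed between the pools by a median of 2.50 points, and 88 of 99 readings stayed within 10 points. The following are named because their control is best known, and their bases are shown so that the exons can be recognised.
Src 18-nt exon: gaggaaggtggatgtcag
Agrn 24-nt exon: cgagctgaccaatgagatcccagc
Agrn 33-nt exon: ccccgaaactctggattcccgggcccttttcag

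The 18-nt exon of Src (chr2:157458843-157458860) is the neuronal N1 exon, the classic target of Ptbp1 repression. Its inclusion was 58.6% in replicate 1 and 69.5% in replicate 2. Transcripts with the exon exceeded those without it in both pools, and inclusion was higher in the pool with less Ptbp1 and more neuronal marker RNA. With 2 pools this order is no test of a relation.

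Agrin gains the ability to cluster acetylcholine receptors from the 24-nt and 33-nt exons (chr4:156168546-156168569 and chr4:156167777-156167809), which Nova proteins are known to promote. Inclusion was 71.4% and 75.5% for the 24-nt exon and 25.8% and 27.6% for the 33-nt exon. Each value compares coding models with the same fragment, typed as a retained intron. That fragment is the only transcript with the exon in the 24-nt value and the only one without it in the 33-nt value. The values are therefore tied to each other. By expected counts the order of the exons was the opposite, with averages of 44.7% for the 24-nt exon and 56.9% for the 33-nt exon. For Agrn, then, only that both forms were present can be read from these tables.

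The 54-nt exon of Cltb, a clathrin light chain (chr13:54597026-54597079), was included at 63.3% in replicate 1 and 62.7% in replicate 2, a difference of under 1 point. By expected counts it was 42.8% and 42.2%, so which form was the more abundant depended on the unit. For the known alternative exons of Dlg4, Pkm and Daam1 no such pair of transcripts could be measured in the tables.

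**Figure D4:**
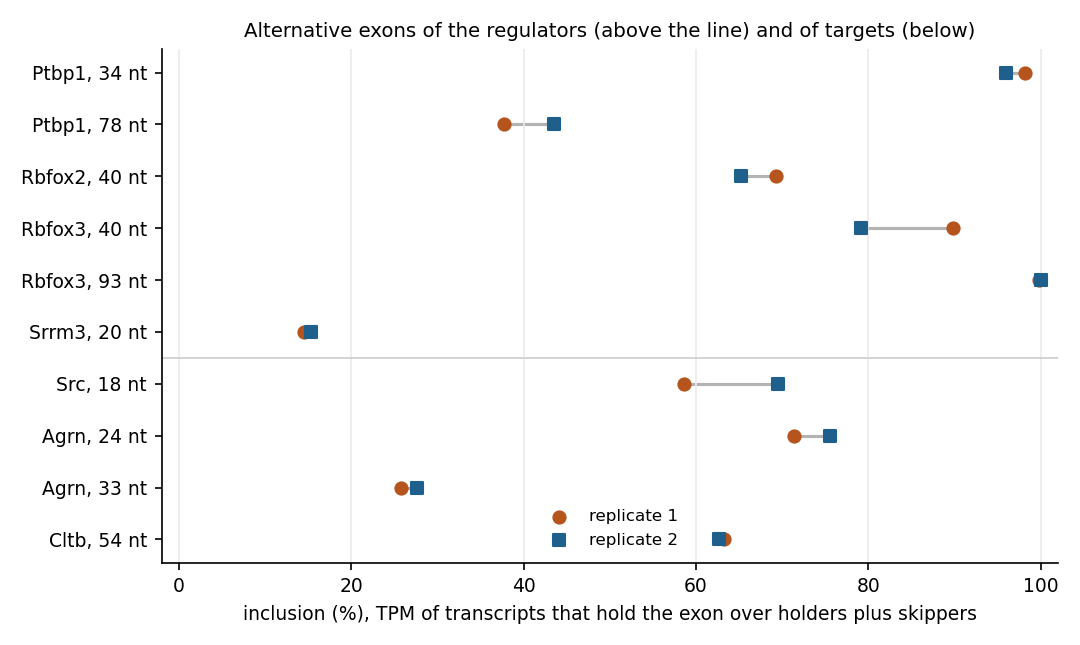
Inclusion (%) of alternative exons, as TPM of transcripts with the exon over transcripts with or without it, in replicate 1 (circles) and replicate 2 (squares). The Ptbp1 34-nt exon stood near 100%, the Srrm3 20-nt exon near 15%, and the Rbfox3 40-nt exon plotted is the non-coding one near the start of the gene.

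Other splicing factors formed the setting in which the 10 act. Of a list of 32, 28 reached 1 TPM in both libraries. The highest were Hnrnpk at 1005.94 and 939.65 TPM, Matr3, which binds Ptbp1, at 483.74 and 534.33 TPM, Hnrnpa1 at 476.89 and 457.69 TPM, and Srrm2, a core spliceosome protein, at 340.06 and 354.58 TPM. Each of these was above every one of the 10 regulators in both libraries. Of the 31 at 1 TPM or more in either library, 3 were called, all higher in replicate 1, where 6.38% of all genes were called: the epithelial factors Esrp1 (4.09 and 0.04 TPM) and Esrp2 (3.7 and 0.13 TPM), and Mbnl3 (2.83 and 0.55 TPM). Esrp1 is also on the epithelial marker list, which differed the same way. Rbm20, a factor of heart muscle, was among the lowest at 0.98 and 0.34 TPM. For the list as a whole, 24 of 32 were higher in replicate 1, with a median log2 ratio of 0.086.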

How the data were processed

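Per the labels' protocols, RNA was extracted with a mirVana kit and spike-in RNA was added; a low-input SMARTer manual is linked. For each library the authors made a table of genes and one of transcripts, on mm10 with GENCODE M4 per the deposited note. The sources used here name no aligner, quantifier or version and do not say whether strand was used. Expected counts (reads shared out among transcripts by a model), TPM, a posterior mean TPM and the bounds of its interval were deposited by the authors, per the file headers, the bounds being a score with no stated level. The percent of a gene in each transcript was computed from the deposited TPM, and the percent column the authors deposited was not used.

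Symbols, transcript types, exons and sequences came from GENCODE M21 on GRCm38 (mm10), matched by identifier without version: 42462 of 43346 genes and 57 of 59 transcripts of the regulators matched, 51 with unchanged length. Spike-ins took 2.12% and 2.28% of counts, and these and 26248 entries named by a number alone stayed out of gene analyses. The libraries are separate pools, biological replicates 1 and 2 per the labels, and no p-value was computed. Log2 ratios used a pseudocount of 1 TPM, and folds between genes were taken without it. Detection was 1 TPM or more in both libraries. Exon inclusion was the TPM of transcripts with the exon over that of transcripts with the exon and those joining the same neighbouring splice sites without it, given at 1 TPM or more in both libraries. At this depth 3 counts equal 0.0515 TPM for Ptbp1 in replicate 1, a floor that covers counting error only. Alternatives were other scalings (TMM from edgeR 4.0.16 and size factors from DESeq2 1.42.0 on rounded counts, in R 4.3.3), units, thresholds, transcript classes and leaving out each library. Other steps ran in Python 3.11.15 with pandas 2.3.3. Of these, the call between libraries was tested on simulated counts, and the finding of alternative exons and the unproductive share on small constructed examples. Members, lists and rules were chosen with earlier results of these data known. Named were all 10 regulators, their transcripts at 5% or more of the gene, their alternative exons, target exons set by length, and of the partner and target lists the 4 highest, the 3 lowest and any called. Unproductive transcripts under 5% and others are named where a result turns on them. Some target exons are not reported here.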

Additional observations from a re-analysis of the deposited data

How the results depend on the processing

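The 2 genes higher in replicate 1 and 8 higher in replicate 2 kept their direction under every scaling and filter tried, while spike-in scaling moved the median of all genes from 0.024 to 0.115. Log2 ratios between relatives that changed sign in CPM were those of Rbfox2 to Rbfox1 (0.17), Rbfox3 to Rbfox2 (-1.004) and Srrm3 to Srrm4 (-0.24); the last was also negative with complete coding transcripts alone (-0.38), an alternative chosen after seeing the data. By CPM others moved without changing sign: Ptbp3 to Ptbp1 was -1.26, Nova2 to Nova1 -2.71 and Rbfox3 to Rbfox1 -0.83. With productive transcripts Nova2 to Nova1 was -3.47 and Srrm3 to Srrm4 2.19. With complete coding transcripts Nova2 to Nova1 was -3.47, Rbfox3 to Rbfox1 -1.68 and Rbfox3 to Rbfox2 0.23. With a pseudocount of 0, Rbfox2 to Rbfox1 was -1.93 and Srrm3 to Srrm4 2.63, and with 0.1 TPM Rbfox2 to Rbfox1 was -1.93. The number of regulators with an unproductive share of 20% or more, 1 as reported, was 0 with transcripts typed for decay alone and 0 at a threshold of 50%. It was 2 at a threshold of 10% and 2 with unmatched transcripts counted as unproductive. Leaving out 1 library gave 1 to 2, with 2 without replicate 1. Inclusion of the Srrm3 20-nt exon was 9.09% by expected counts. The cause of these shifts was not tested beyond the change of unit or class itself. No paired analysis was possible because the libraries form 1 group. With 2 libraries, transcripts below a few TPM are the least certain.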

Other observations

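Of the 99 readings of target exons, 11 differed by more than 10 points between the pools, that of Src among them. Inclusion was higher in replicate 2 in 9 of the 11 and in replicate 1 in 2. The exons named here were chosen after their values were seen. A 54-nt exon of Clta, a clathrin light chain, was included at 65.5% in replicate 1 and 78.0% in replicate 2 in its main splice-site setting, and at 83.3% and 83.5% in a second setting of far lower TPM. A 93-nt exon of Bin1, a membrane-bending protein, was at 64.0% and 74.5%, and a 9-nt microexon of the potassium channel gene Kcnma1 at 49.7% and 67.1%; both rest on models that changed length between annotation releases. A 33-nt exon of Numb, a regulator of Notch signalling, was at 10.8% and 26.3%, with only 1.02 and 2.33 TPM in transcripts that hold it. Higher in replicate 1 were a 40-nt exon of Apbb1, at 37.7% and 0% in a setting of under 3 TPM, and an exon of Itsn1, at 100% and 87.4%. The Itsn1 transcript without the exon was at 0 TPM in replicate 1 and 1.04 TPM in replicate 2. In its other setting the Apbb1 exon was at 0% and 25.9%. Over all 99 readings, 56 were higher in replicate 2, 34 in replicate 1 and 9 were equal.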
